A study of Mus musculus with 5 samples.

Results

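The genes described here are 10 members of the Notch pathway, read in the nuclei of developing and adult mouse hindlimb muscle. They are the ligands Dll1, Jag1 and Jag2, the receptors Notch1, Notch2 and Notch3, the target genes Hes1, Hey1 and Heyl, and Megf10. They were taken by gene symbol, and all 10 were found among the 32285 genes counted. The 10x Genomics multiome assay, which reads RNA and open chromatin in each nucleus, was run on 5 libraries of C57bl6n hindlimb skeletal muscle, with 1 library for each group. The groups are Cacna1s-/- embryos at E18.5, WT embryos at E14.5 and E18.5, and WT mice at P5 and Adult. Each library pooled hindlimbs, 26 for Cacna1s-/- E18.5 and 56, 14, 8 and 4 for the WT stages from youngest to oldest. Cacna1s codes for the pore subunit of the L-type calcium channel of skeletal muscle. The knockout is a germline deletion of its coding region by a reporter cassette, so every cell type carries it. Nuclei were sorted into those with and those without PCM1, a protein of the myonuclear envelope, and mixed again in equal volumes, so the share of each nucleus type in a library is set in part by the sort.

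Notch signalling passes between cells in contact. A Delta or Jagged ligand on a cell binds a Notch receptor on its neighbour, and the receptor is cut first by an ADAM protease and then by gamma-secretase. The freed intracellular part enters the nucleus, joins Rbpj and a Mastermind coactivator, and switches on repressors of the Hes and Hey families. In skeletal muscle the pathway holds Pax7 positive progenitors and satellite cells in the undifferentiated state, and cells that have begun to differentiate are known to carry Delta ligand. The same receptors and Jagged ligands act in blood vessels, where Notch3 is the receptor of mural cells. Megf10 is a transmembrane protein with EGF-like repeats, known from satellite cells, where it has been tied to Notch signalling.

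RefSeq gave a promoter window of 300 bases around a start site, most of them upstream, for 6 of the 10 members. These are the ligands and receptors. Hes1, Hey1, Heyl and Megf10 had no window, so no motif was searched at them. Dll1 had windows at 2 start sites, which makes 7 in all. The windows of Dll1, Jag1 and Notch3 are printed because these members separated Pax7 from Myog nuclei in the results that follow. They read 5′ to 3′ on the coding strand in GRCm38.p6, and capitals mark CAGCTG, an E-box of the kind bound by Myod1 and Myogenin.
Dll1, chr17:15375774-15376073, minus strand: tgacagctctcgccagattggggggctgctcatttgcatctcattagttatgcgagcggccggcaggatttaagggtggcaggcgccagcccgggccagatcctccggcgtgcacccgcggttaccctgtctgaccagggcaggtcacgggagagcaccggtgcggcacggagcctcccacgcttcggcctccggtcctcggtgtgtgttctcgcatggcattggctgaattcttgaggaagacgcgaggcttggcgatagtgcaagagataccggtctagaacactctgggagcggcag
Dll1 upstream start, chr17:15376883-15377182, minus strand: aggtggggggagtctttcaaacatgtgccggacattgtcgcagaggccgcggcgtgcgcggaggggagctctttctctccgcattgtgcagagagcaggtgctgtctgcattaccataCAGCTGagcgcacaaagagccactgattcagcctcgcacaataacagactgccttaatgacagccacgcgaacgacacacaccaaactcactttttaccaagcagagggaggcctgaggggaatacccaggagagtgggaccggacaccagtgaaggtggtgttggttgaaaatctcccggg
Jag1, chr2:137116471-137116770, minus strand: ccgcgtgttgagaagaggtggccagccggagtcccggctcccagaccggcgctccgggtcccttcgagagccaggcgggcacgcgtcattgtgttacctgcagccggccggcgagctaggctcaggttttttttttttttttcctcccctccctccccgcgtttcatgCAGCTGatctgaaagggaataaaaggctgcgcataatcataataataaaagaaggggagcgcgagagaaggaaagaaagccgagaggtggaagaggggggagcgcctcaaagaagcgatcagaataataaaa
Notch3, chr17:32166841-32167140, minus strand: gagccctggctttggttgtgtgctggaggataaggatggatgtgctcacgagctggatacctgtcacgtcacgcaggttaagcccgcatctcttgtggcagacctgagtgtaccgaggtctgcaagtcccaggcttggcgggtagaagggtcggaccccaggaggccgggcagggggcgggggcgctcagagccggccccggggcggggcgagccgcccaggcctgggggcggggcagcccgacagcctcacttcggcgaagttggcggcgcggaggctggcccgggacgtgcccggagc
CAGCTG stood at base -132 from the upstream Dll1 start and at base -82 from the Jag1 start, and in none of the other 5 windows. Of 32851 mouse promoters of this length, 16.3% hold it. The Rbpj motif TGGGAA, searched on both strands, was in 0 of the 7 ligand and receptor windows, against 25.6% of all promoters. The E-box CACGTG, also searched on both strands, was in 0 of the 7, against 7.15% of all promoters. No match of one motif overlapped a match of another in these windows. Open-chromatin peaks covered at least 266 of the 300 bases of the downstream Dll1 window in all 5 libraries and none of the upstream one. They covered 122 to 207 bases of the Jag1 window and all 300 of the Notch3 window.

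In the GENCODE vM21 annotation of GRCm38, the ligand genes lie on the minus strand, Dll1 at chr17:15367354-15376872, Jag1 at chr2:137081456-137116644 and Jag2 at chr12:112907819-112929776. The receptors lie at chr2:26457903-26516663 (Notch1, minus), chr3:98013527-98150361 (Notch2, plus) and chr17:32120820-32166852 (Notch3, minus). Of the targets, Hes1 lies at chr16:30064384-30067796 (plus), Hey1 at chr3:8663359-8667256 (minus) and Heyl at chr4:123233556-123249875 (plus). Genes of the opposite strand overlap Notch1 (0610009E02Rik with 848 UMIs and Gm13568 with 22 UMIs over all gates) and Notch3 (the antisense gene Gm17276 with 1267 UMIs). Whether counting used the strand was not given in the sources used here, so reads of these pairs cannot be told apart.

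Libraries held 3621 to 5407 barcodes called as nuclei, and 21154 of 22301 passed the filters on RNA, mitochondrial RNA and ATAC counts. The study's supplement adds a minimum of ATAC counts that was not set here. The study counted more nuclei for Cacna1s-/- E18.5 than this library has barcodes, and fewer for each WT stage than were kept here. With at least 400 ATAC counts required as well, 3968, 3927, 3390 and 4769 nuclei were left in WT E14.5, E18.5, P5 and Adult. Without that minimum there were 4812, 4261, 3747 and 5106. The WT counts thus came nearer to those of the study and stayed above them. In Cacna1s-/- E18.5 the minimum left 2732 nuclei in place of 3228, and that difference was not resolved. A library had 21063081 to 29574992 UMIs, and a nucleus a median of 2888 to 7821 UMIs. Each pair of libraries shared 17 to 47 barcodes, and 291 barcodes were found in more than 1 library. Levels are given as CPM, the UMIs of a gene per 1000000 UMIs of the same nuclei. Cacna1s itself stood at 0.720 CPM (8 UMIs) in the whole Ttn gate of Cacna1s-/- E18.5, against 207, 189, 349 and 326 CPM in that of WT E14.5, E18.5, P5 and Adult.

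Nuclei were put in 5 gates. A nucleus entered a gate with at least 1 UMI of Pax7 (progenitors), Myog (committed myoblasts and young myonuclei), Pecam1 (endothelium) or Myh11 (smooth muscle), or with Ttn at 1% or more of its UMIs (myonuclei). The Pax7 gate held 525 nuclei in Cacna1s-/- E18.5 and 250, 392, 249 and 185 in WT E14.5, E18.5, P5 and Adult. Many of them met a second gate. The share also in the Ttn gate was 28.0% in Cacna1s-/- E18.5 and 12.8%, 54.6%, 64.3% and 86.5% in the WT stages, so the Adult gate was mostly nuclei with abundant Ttn. Levels are therefore given in nuclei that met exactly 1 gate, and in the whole gate where that is said. For Pax7 these numbered 314 in Cacna1s-/- E18.5 and 204, 166, 81 and 24 in the WT stages.

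The Pax7 gate carried progenitor markers in every library. In its nuclei, 7 progenitor markers other than Pax7 (Fgfr4, Calcr, Myf5, Msc, Chodl, Sdc4 and Vcam1) together reached 922 CPM in Cacna1s-/- E18.5 and 678, 933, 1093 and 2660.4 CPM in the WT stages, against 108 CPM in Cacna1s-/- and 271, 82.6, 52.4 and 24.7 CPM in WT Ttn nuclei. The myonuclear list (Ttn and 9 other genes, Ckm and Acta1 among them) summed to 2076 CPM in Cacna1s-/- and 1692, 1520.3, 2269 and 2559 CPM in WT Pax7 nuclei. In the whole Pax7 gate it summed to 13008 CPM in Cacna1s-/- and 6745, 26556, 32493 and 89173 CPM in WT. The whole gate thus held far more myonuclear RNA, most of all in Adult.

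Endothelial markers summed to 42.5 to 119.9 CPM in Pax7 nuclei, against 2726 to 3968 CPM in Pecam1 nuclei. Smooth muscle and pericyte markers summed to 101 to 171 CPM in Pax7 nuclei, against 1009 to 2398 CPM in Myh11 nuclei. Mesenchymal markers (Pdgfra, Dcn, Col1a1 and others) summed to 101 to 1875 CPM in Pax7 nuclei, highest at P5. They exceeded the progenitor sum of these nuclei in WT E18.5 (1047 against 933 CPM) and WT P5 (1875 against 1093 CPM). In Cacna1s-/- E18.5, WT E14.5 and Adult the mesenchymal sum was the smaller. Myog nuclei still held 6166 CPM of myonuclear markers in Cacna1s-/- E18.5 and 9722 and 8637 CPM in WT E14.5 and E18.5, above the Pax7 nuclei of the same libraries. They also held 929 CPM of mesenchymal markers in Cacna1s-/- E18.5 and 347 and 1242 CPM in WT E14.5 and E18.5, beside 494 CPM of committed myoblast markers other than Myog in Cacna1s-/- and 474 and 551 CPM in WT. The mesenchymal sum was thus the larger at E18.5 in both genotypes. In sums of this kind, more nuclei with a gene and more RNA in each of them cannot be told apart.

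**Figure D1:**
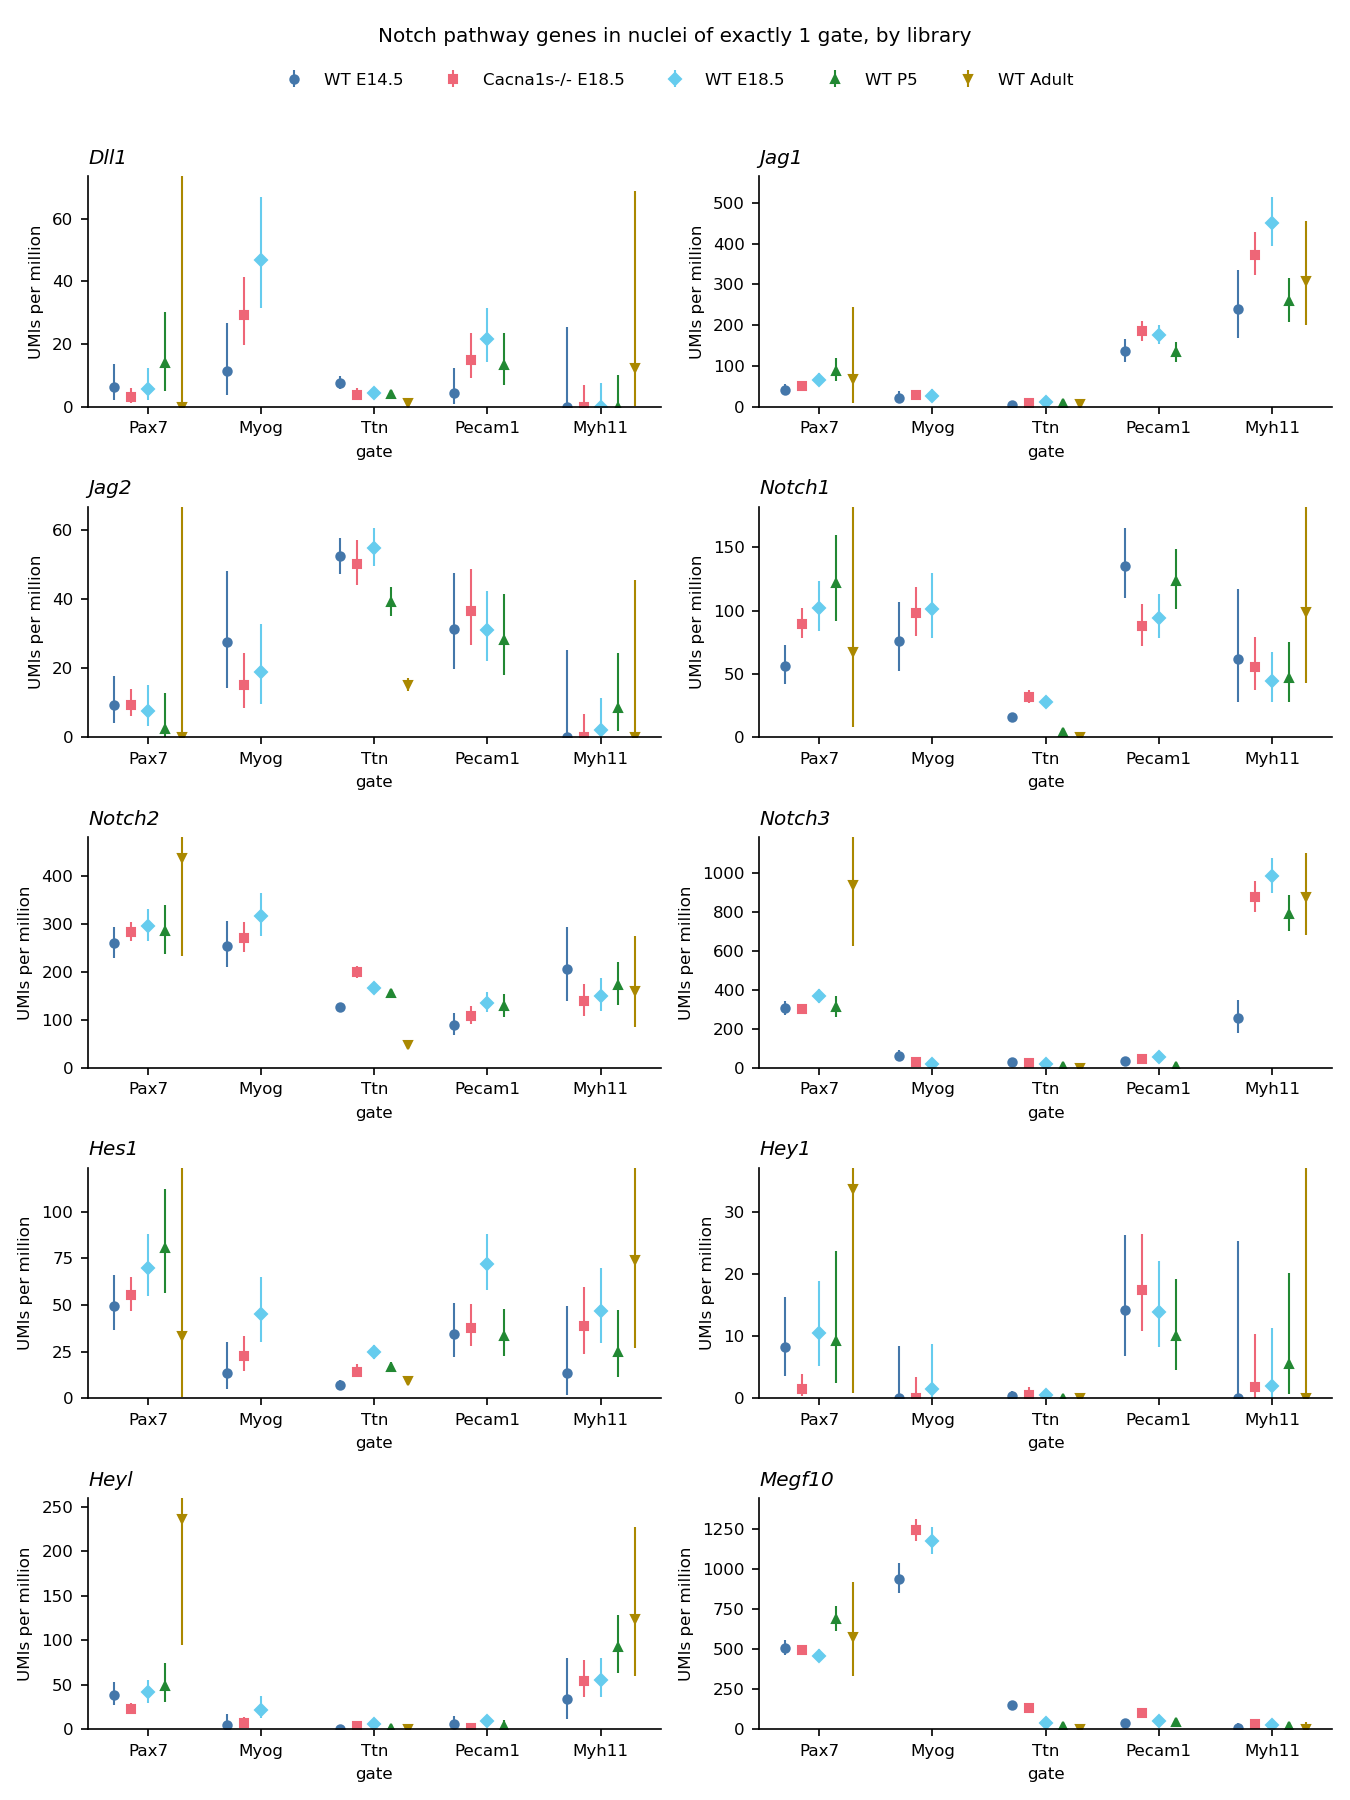
Levels of the 10 members, in CPM with exact Poisson 95% intervals, in nuclei that met exactly 1 gate, for each gate and library (colours), each member on its own axis. Axes are set to the points, so some intervals of the WT Adult library, which rest on few nuclei, run off the top. Notch3 and Heyl stand highest in the Pax7 and Myh11 gates, Jag1 in the Myh11 and Pecam1 gates, Jag2 in the Ttn and Pecam1 gates, and Megf10 in the Pax7 and Myog gates.

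Progenitors were first set against the next step of the lineage, the Myog gate. Of the 10 members, Notch3, Jag1 and Hes1 were higher in Pax7 nuclei and Dll1 and Jag2 were lower, by edgeR's quasi-likelihood test on the sums of each gate and library. The test had the library as a block and Benjamini-Hochberg adjustment over 11920 genes. That is 3 members higher and 2 lower of 10, where 4.81% of all genes were higher and 4.71% lower. The median log2 fold was 0.63 over the 10 members and 0.00411 over all genes. The Pax7 gate entered with 5 libraries and the Myog gate with 3, as WT P5 and Adult had under 20 Myog nuclei in exactly 1 gate. All gates were in a joint fit. The p-values thus rest on the spread of all gates between libraries, not on that of the Pax7 and Myog gates alone. The libraries also differ in stage and genotype. Each call of this comparison was lost under at least 1 of the 12 or 13 alternative settings run, and the range is given beside it.

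The ligands differed in direction. Dll1, a Delta ligand, had 3.03 CPM in Cacna1s-/- E18.5 and 6.22 and 5.74 CPM in WT E14.5 and E18.5 Pax7 nuclei, against 29.2 CPM in Cacna1s-/- and 11.5 and 46.9 CPM in WT Myog nuclei. Pax7 nuclei were the lower in all 3 libraries, from 8, 6 and 6 UMIs in the Pax7 nuclei of Cacna1s-/- E18.5, WT E14.5 and WT E18.5. For Dll1, edgeR gave a log2 fold of -2.37 ± 0.60 (SE), Benjamini-Hochberg adjusted p = 0.0143. The call held in 9 of 12 alternatives, over which the adjusted p, of edgeR or DESeq2, ran from 6.67e-04 to 0.251.

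Jag1, a Jagged ligand best known from vessels and the inner ear, had the opposite order. Its level was 51.5 CPM in Cacna1s-/- E18.5 and 40.4 and 66.1 CPM in WT E14.5 and E18.5 Pax7 nuclei, against 29.2 CPM in Cacna1s-/- and 20.7 and 26.6 CPM in WT Myog nuclei. For Jag1, edgeR gave a log2 fold of 1.17 ± 0.28 (SE), Benjamini-Hochberg adjusted p = 0.0112. The call held in 8 of 13 alternatives, over which the adjusted p, of edgeR or DESeq2, ran from 0.00624 to 0.669. Jag2, a Jagged ligand known from limb and craniofacial development, had 9.47 CPM in Cacna1s-/- E18.5 and 9.33 and 7.66 CPM in WT E14.5 and E18.5 Pax7 nuclei, against 15.1 CPM in Cacna1s-/- and 27.6 and 18.8 CPM in WT Myog nuclei. Pax7 nuclei were the lower in all 3 libraries, and the fit sat at the threshold. For Jag2, edgeR gave a log2 fold of -1.28 ± 0.40 (SE), Benjamini-Hochberg adjusted p = 0.0499. Its call held in 5 of 12 alternatives, over which the adjusted p, of edgeR or DESeq2, ran from 0.0149 to 0.277.

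Among the receptors, Notch3 alone passed the test. It had 301 CPM in Cacna1s-/- E18.5 and 307 and 369 CPM in WT E14.5 and E18.5 Pax7 nuclei, against 30.1 CPM in Cacna1s-/- and 62.1 and 18.8 CPM in WT Myog nuclei. The Pax7 values lay far above the Myog values, with no overlap. For Notch3, edgeR gave a log2 fold of 3.57 ± 0.77 (SE), Benjamini-Hochberg adjusted p = 0.00473. The call held in 11 of 13 alternatives, over which the adjusted p, of edgeR or DESeq2, ran from 4.40e-07 to 0.105. Without Cacna1s-/- E18.5 or without WT E18.5, which leaves 2 libraries in the Myog gate, edgeR called 0 of the 10 members, with 7 at an unadjusted p under 0.05 in each case.

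Notch1 and Notch2 did not separate these gates. Notch1, a receptor used by many kinds of progenitor, had 89.8 CPM in Cacna1s-/- E18.5 and 56.0 and 102 CPM in WT E14.5 and E18.5 Pax7 nuclei, against 97.9 CPM in Cacna1s-/- and 75.9 and 102 CPM in WT Myog nuclei. For Notch1, edgeR gave a log2 fold of 0.09 ± 0.60 (SE), Benjamini-Hochberg adjusted p = 0.973. Notch2, a receptor that is also known from satellite cells, had 284 CPM in Cacna1s-/- E18.5 and 260.1 and 297 CPM in WT E14.5 and E18.5 Pax7 nuclei, against 272 CPM in Cacna1s-/- and 255 and 318 CPM in WT Myog nuclei. For Notch2, edgeR gave a log2 fold of 0.04 ± 0.25 (SE), Benjamini-Hochberg adjusted p = 0.975. The Pax7 level was the higher in 1 of 3 libraries for Notch1 and in 2 of 3 for Notch2.

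Each of the 3 target genes had a higher CPM in Pax7 nuclei of all 3 libraries, and Hes1 alone passed the test. Hes1, a repressor that Notch induces in many tissues, had 55.3 CPM in Cacna1s-/- E18.5 and 49.7 and 69.9 CPM in WT E14.5 and E18.5 Pax7 nuclei, against 22.6 CPM in Cacna1s-/- and 13.8 and 45.4 CPM in WT Myog nuclei. For Hes1, edgeR gave a log2 fold of 1.23 ± 0.33 (SE), Benjamini-Hochberg adjusted p = 0.0199. The call held in 5 of 12 alternatives, over which the adjusted p, of edgeR or DESeq2, ran from 0.00910 to 0.279. Heyl, a repressor of the Hey family known as a Notch target of satellite cells, had 23.1 CPM in Cacna1s-/- E18.5 and 38.3 and 41.2 CPM in WT E14.5 and E18.5 Pax7 nuclei, against 6.59 CPM in Cacna1s-/- and 4.60 and 21.9 CPM in WT Myog nuclei. For Heyl, edgeR gave a log2 fold of 2.03 ± 0.72 (SE), Benjamini-Hochberg adjusted p = 0.0859. Hey1, a further repressor of that family, rested on few UMIs. There were 4, 8 and 11 in the Pax7 nuclei of Cacna1s-/- E18.5, WT E14.5 and WT E18.5, against 0, 0 and 1 in Myog nuclei. For Hey1, edgeR gave a log2 fold of 3.66 ± 1.22 (SE), Benjamini-Hochberg adjusted p = 0.0668. Neither Heyl nor Hey1 was called, and each was called in 3 of 12 alternatives.

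Megf10 was abundant in both gates. It had 492 CPM in Cacna1s-/- E18.5 and 506 and 458 CPM in WT E14.5 and E18.5 Pax7 nuclei, against 1239 CPM in Cacna1s-/- and 938 and 1172 CPM in WT Myog nuclei. The Pax7 level was the lower in each of the 3 libraries, by more than counting error, but the fit across all gates and libraries did not call it. For Megf10, edgeR gave a log2 fold of -0.58 ± 0.67 (SE), Benjamini-Hochberg adjusted p = 0.699. None of its 13 alternatives called it.

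Beside the members, 45 other genes of the pathway were read as a list of ligands, ligand ubiquitin ligases, sugar transferases, proteases, nuclear cofactors, inhibitors and further targets, of which 39 could be tested. In Pax7 against Myog nuclei 3 were higher and 1 lower by edgeR. In log2 fold, the higher ones were Calcr (7.15), the calcitonin receptor of quiescent satellite cells, Dtx4 (2.82), which codes for a deltex ubiquitin ligase, and Lfng (2.76), the fringe enzyme that adds sugar to Notch and alters its choice of ligand. Neurl1a, a ligand ubiquitin ligase, was lower (-2.07). Calcr is also 1 of the 7 progenitor markers.

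Against myonuclei the separation was wider. In Pax7 nuclei 7 of the 10 members were higher than in Ttn nuclei and 1 was lower, with 5 libraries in each gate (edgeR quasi-likelihood test). Of all genes, 18.49% were higher and 19.4% lower. The median log2 fold was 2.29 over the members and 0.02 over all genes. All 8 calls held in every alternative that tested the member.

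The receptors were higher in Pax7 nuclei in all 5 libraries. Notch3 had 301 CPM in Cacna1s-/- E18.5 and 307, 369, 311 and 943 CPM in WT E14.5, E18.5, P5 and Adult Pax7 nuclei, against 26.8 CPM in Cacna1s-/- and 32.6, 22.1, 10.5 and 1.32 CPM in WT Ttn nuclei. Every Pax7 value lay above every Ttn value. For Notch3, edgeR gave a log2 fold of 3.96 ± 0.59 (SE), Benjamini-Hochberg adjusted p = 2.47e-05. Notch1 had 89.8 CPM in Cacna1s-/- E18.5 and 56.0, 102, 122 and 67.4 CPM in WT E14.5, E18.5, P5 and Adult Pax7 nuclei, against 31.6 CPM in Cacna1s-/- and 15.9, 27.8, 3.83 and 0.550 CPM in WT Ttn nuclei. These gates did not overlap either, and the Ttn level was lowest in Adult. For Notch1, edgeR gave a log2 fold of 2.11 ± 0.52 (SE), Benjamini-Hochberg adjusted p = 0.00353. Notch2 had 284 CPM in Cacna1s-/- E18.5 and 260.1, 297, 286 and 438 CPM in WT E14.5, E18.5, P5 and Adult Pax7 nuclei, against 199 CPM in Cacna1s-/- and 128, 168, 157 and 47.6 CPM in WT Ttn nuclei. The gap was smaller than for the other receptors, and it was not called. For Notch2, edgeR gave a log2 fold of 0.54 ± 0.21 (SE), Benjamini-Hochberg adjusted p = 0.0515. The Notch2 difference was called in 1 of 13 alternatives, over which the adjusted p, of edgeR or DESeq2, ran from 0.0237 to 0.430.

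Jag2 was the member lower in progenitors than in myonuclei. It had 9.47 CPM in Cacna1s-/- E18.5 and 9.33, 7.66, 2.31 and 0 CPM in WT E14.5, E18.5, P5 and Adult Pax7 nuclei, against 50.2 CPM in Cacna1s-/- and 52.3, 54.8, 39.1 and 15.1 CPM in WT Ttn nuclei. Pax7 nuclei were the lower by more than counting error in all libraries but WT Adult, where 0 UMIs in 24 nuclei allow up to 101 CPM (3 UMIs). For Jag2, edgeR gave a log2 fold of -3.10 ± 0.32 (SE), Benjamini-Hochberg adjusted p = 3.80e-07. Jag1 was higher in progenitors, with 51.5 CPM in Cacna1s-/- E18.5 and 40.4, 66.1, 87.6 and 67.4 CPM in WT E14.5, E18.5, P5 and Adult Pax7 nuclei, against 8.58 CPM in Cacna1s-/- and 3.54, 10.3, 7.89 and 6.82 CPM in WT Ttn nuclei. For Jag1, edgeR gave a log2 fold of 2.47 ± 0.23 (SE), Benjamini-Hochberg adjusted p = 7.44e-08. Dll1 was low in both gates, at 0 to 13.8 CPM in Pax7 nuclei and 1.32 to 7.47 CPM in Ttn nuclei. For Dll1, edgeR gave a log2 fold of -0.20 ± 0.54 (SE), Benjamini-Hochberg adjusted p = 0.817.

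All 3 targets and Megf10 were higher in Pax7 than in Ttn nuclei. Heyl had 23.1 CPM in Cacna1s-/- E18.5 and 38.3, 41.2, 48.4 and 236 CPM in WT E14.5, E18.5, P5 and Adult Pax7 nuclei, against 2.93 CPM in Cacna1s-/- and 0.524, 5.79, 1.31 and 0.330 CPM in WT Ttn nuclei. The Adult Pax7 value is 7 UMIs from 24 nuclei. For Heyl, edgeR gave a log2 fold of 4.08 ± 0.55 (SE), Benjamini-Hochberg adjusted p = 8.55e-06. Hes1 had 55.3 CPM in Cacna1s-/- E18.5 and 49.7, 69.9, 80.7 and 33.7 CPM in WT E14.5, E18.5, P5 and Adult Pax7 nuclei, against 14.4 CPM in Cacna1s-/- and 7.47, 24.7, 16.6 and 9.36 CPM in WT Ttn nuclei. Its Pax7 level was the higher in all 5 libraries. For Hes1, edgeR gave a log2 fold of 1.61 ± 0.25 (SE), Benjamini-Hochberg adjusted p = 4.52e-05. Hey1 had 4, 8, 11, 4 and 1 UMIs in the Pax7 nuclei of Cacna1s-/- E18.5 and the WT stages from E14.5 to Adult, against 3, 3, 4, 0 and 1 UMIs in the far more numerous Ttn nuclei of those libraries. For Hey1, edgeR gave a log2 fold of 3.72 ± 0.70 (SE), Benjamini-Hochberg adjusted p = 3.00e-04.

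Megf10 had 492 CPM in Cacna1s-/- E18.5 and 506, 458, 685 and 572 CPM in WT E14.5, E18.5, P5 and Adult Pax7 nuclei, against 133 CPM in Cacna1s-/- and 152, 35.4, 16.8 and 1.71 CPM in WT Ttn nuclei. For Megf10, edgeR gave a log2 fold of 3.06 ± 0.59 (SE), Benjamini-Hochberg adjusted p = 4.19e-04. Its level in Pax7 nuclei kept between 458 and 685 CPM over the 5 libraries, whereas its level in Ttn nuclei spanned 1.71 to 152 CPM. Of the other 39 pathway genes 11 were higher and 2 lower in Pax7 than in Ttn nuclei. By edgeR log2 fold they were led by Calcr (8.26), the ligand ubiquitin ligase gene Neurl1b (4.75) and Lfng (4.43), with Neurl1a (-2.01) and the Mastermind gene Maml3 (-0.81) lower.

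The endothelial gate differed from progenitors in receptors and ligands alike. Against Pecam1 nuclei (4 libraries, as Adult had 13 of them) 4 members were higher in Pax7 nuclei and 2 lower, where 8.69% of all genes were higher and 10.4% lower by edgeR. Notch3 had 301 CPM in Cacna1s-/- E18.5 and 307, 369 and 311 CPM in WT E14.5, E18.5 and P5 Pax7 nuclei, against 44.3 CPM in Cacna1s-/- and 37.1, 55.0 and 11.2 CPM in WT Pecam1 nuclei. For Notch3, edgeR gave a log2 fold of 3.47 ± 0.65 (SE), Benjamini-Hochberg adjusted p = 7.98e-04. Notch2 had 284 CPM in Cacna1s-/- E18.5 and 260.1, 297 and 286 CPM in WT E14.5, E18.5 and P5 Pax7 nuclei, against 109 CPM in Cacna1s-/- and 89.9, 136 and 129 CPM in WT Pecam1 nuclei. Pax7 nuclei were the higher in all 4 libraries for both receptors. For Notch2, edgeR gave a log2 fold of 1.40 ± 0.24 (SE), Benjamini-Hochberg adjusted p = 2.95e-04. Heyl and Megf10 were the other higher members. For Heyl, edgeR gave a log2 fold of 3.23 ± 0.67 (SE), Benjamini-Hochberg adjusted p = 0.00196. For Megf10, edgeR gave a log2 fold of 3.64 ± 0.66 (SE), Benjamini-Hochberg adjusted p = 5.56e-04. These 4 calls held in every alternative that tested the member.

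Both Jagged ligands were lower in Pax7 than in Pecam1 nuclei. Jag1 had 51.5 CPM in Cacna1s-/- E18.5 and 40.4, 66.1 and 87.6 CPM in WT E14.5, E18.5 and P5 Pax7 nuclei, against 185 CPM in Cacna1s-/- and 136, 175 and 133 CPM in WT Pecam1 nuclei. The gates did not overlap, and the call held in all 13 alternatives. For Jag1, edgeR gave a log2 fold of -1.40 ± 0.22 (SE), Benjamini-Hochberg adjusted p = 1.70e-04. Jag2 had 9.47 CPM in Cacna1s-/- E18.5 and 9.33, 7.66 and 2.31 CPM in WT E14.5, E18.5 and P5 Pax7 nuclei, against 36.4 CPM in Cacna1s-/- and 31.4, 31.0 and 28.0 CPM in WT Pecam1 nuclei. For Jag2, edgeR gave a log2 fold of -1.97 ± 0.34 (SE), Benjamini-Hochberg adjusted p = 3.74e-04. Its call held in 11 of 12 alternatives, over which the adjusted p, of edgeR or DESeq2, ran from 6.25e-08 to 0.765. Notch1, also the receptor of arterial endothelium, had 89.8 CPM in Cacna1s-/- E18.5 and 56.0, 102 and 122 CPM in WT E14.5, E18.5 and P5 Pax7 nuclei, against 87.8 CPM in Cacna1s-/- and 136, 94.6 and 123 CPM in WT Pecam1 nuclei and was not called. For Notch1, edgeR gave a log2 fold of -0.24 ± 0.54 (SE), Benjamini-Hochberg adjusted p = 0.825. Hes1, Hey1 and Dll1 were not called either. For Hes1, edgeR gave a log2 fold of 0.55 ± 0.27 (SE), Benjamini-Hochberg adjusted p = 0.173. For Hey1, edgeR gave a log2 fold of -1.08 ± 0.59 (SE), Benjamini-Hochberg adjusted p = 0.229. For Dll1, edgeR gave a log2 fold of -1.20 ± 0.57 (SE), Benjamini-Hochberg adjusted p = 0.157.

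Of the other 39 pathway genes 4 were higher and 7 lower in Pax7 than in Pecam1 nuclei by edgeR. In log2 fold, the endothelial ligand Dll4 (-8.76), the endothelial receptor Notch4 (-5.85) and the feedback inhibitor Nrarp (-4.00) were lower, and Calcr (4.54), Dtx4 (3.50) and the Hes family gene Hes6 (1.88) higher.

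Smooth muscle differed from the progenitors in few of the members, with 2 higher and 1 lower in Pax7 nuclei (5 libraries each), where 6.92% of all genes were higher and 7.21% lower by edgeR. With DESeq2 size factors in place of TMM, 624 genes were higher and 995 lower, against 825 and 860, and the median log2 fold over all genes was 0.00815, against 0.11. Jag1 had 51.5 CPM in Cacna1s-/- E18.5 and 40.4, 66.1, 87.6 and 67.4 CPM in WT E14.5, E18.5, P5 and Adult Pax7 nuclei, against 372 CPM in Cacna1s-/- and 240.3, 451, 258 and 309 CPM in WT Myh11 nuclei. It was lower in the Pax7 nuclei of all 5 libraries, and the call held in all 13 alternatives. For Jag1, edgeR gave a log2 fold of -2.46 ± 0.22 (SE), Benjamini-Hochberg adjusted p = 9.51e-07. Notch3 had 301 CPM in Cacna1s-/- E18.5 and 307, 369, 311 and 943 CPM in WT E14.5, E18.5, P5 and Adult Pax7 nuclei, against 879.9 CPM in Cacna1s-/- and 254, 987, 792 and 878 CPM in WT Myh11 nuclei. Pax7 nuclei were below Myh11 nuclei by more than counting error in Cacna1s-/- E18.5, WT E18.5 and WT P5, and the intervals took in no difference in WT E14.5 and Adult. For Notch3, edgeR gave a log2 fold of -1.07 ± 0.54 (SE), Benjamini-Hochberg adjusted p = 0.205. It was called lower in 5 of 13 alternatives, over which the adjusted p, of edgeR or DESeq2, ran from 3.81e-04 to 0.489.

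Megf10 separated this pair, with 492 CPM in Cacna1s-/- E18.5 and 506, 458, 685 and 572 CPM in WT E14.5, E18.5, P5 and Adult Pax7 nuclei, against 33.3 CPM in Cacna1s-/- and 6.86, 24.4, 22.2 and 0 CPM in WT Myh11 nuclei. The 0 UMIs of Adult Myh11 nuclei allow up to 37.1 CPM. The call held in all 13 alternatives. For Megf10, edgeR gave a log2 fold of 4.86 ± 0.74 (SE), Benjamini-Hochberg adjusted p = 1.64e-04. Notch2 had 284 CPM in Cacna1s-/- E18.5 and 260.1, 297, 286 and 438 CPM in WT E14.5, E18.5, P5 and Adult Pax7 nuclei, against 139 CPM in Cacna1s-/- and 206, 150.2, 172 and 161 CPM in WT Myh11 nuclei. For Notch2, edgeR gave a log2 fold of 0.79 ± 0.23 (SE), Benjamini-Hochberg adjusted p = 0.0263. Its call held in 4 of 13 alternatives, over which the adjusted p, of edgeR or DESeq2, ran from 0.00149 to 0.219. Heyl had 23.1 CPM in Cacna1s-/- E18.5 and 38.3, 41.2, 48.4 and 236 CPM in WT E14.5, E18.5, P5 and Adult Pax7 nuclei, against 53.7 CPM in Cacna1s-/- and 34.3, 54.8, 91.7 and 124 CPM in WT Myh11 nuclei, and was not called. For Heyl, edgeR gave a log2 fold of -0.62 ± 0.55 (SE), Benjamini-Hochberg adjusted p = 0.506. Notch1, Hes1, Hey1, Dll1 and Jag2 were not called. For Notch1, edgeR gave a log2 fold of 0.55 ± 0.61 (SE), Benjamini-Hochberg adjusted p = 0.607. For Hes1, edgeR gave a log2 fold of 0.80 ± 0.30 (SE), Benjamini-Hochberg adjusted p = 0.0839.

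Dll1, Jag2 and Hey1 rested on a few UMIs each in Myh11 nuclei. For Dll1, edgeR gave a log2 fold of 3.06 ± 1.30 (SE), Benjamini-Hochberg adjusted p = 0.127. For Jag2, edgeR gave a log2 fold of 1.55 ± 0.64 (SE), Benjamini-Hochberg adjusted p = 0.117. For Hey1, edgeR gave a log2 fold of 1.33 ± 0.93 (SE), Benjamini-Hochberg adjusted p = 0.375. Of the other 39 pathway genes 5 were higher and 5 lower in Pax7 than in Myh11 nuclei. Those lowest in Pax7 nuclei by edgeR log2 fold were Nrarp (-5.01), the vascular target Hey2 (-3.99) and the Mastermind gene Maml2 (-2.06), and those highest were Calcr (7.96), Dtx4 (2.65) and Lfng (2.46).

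**Figure D2:**
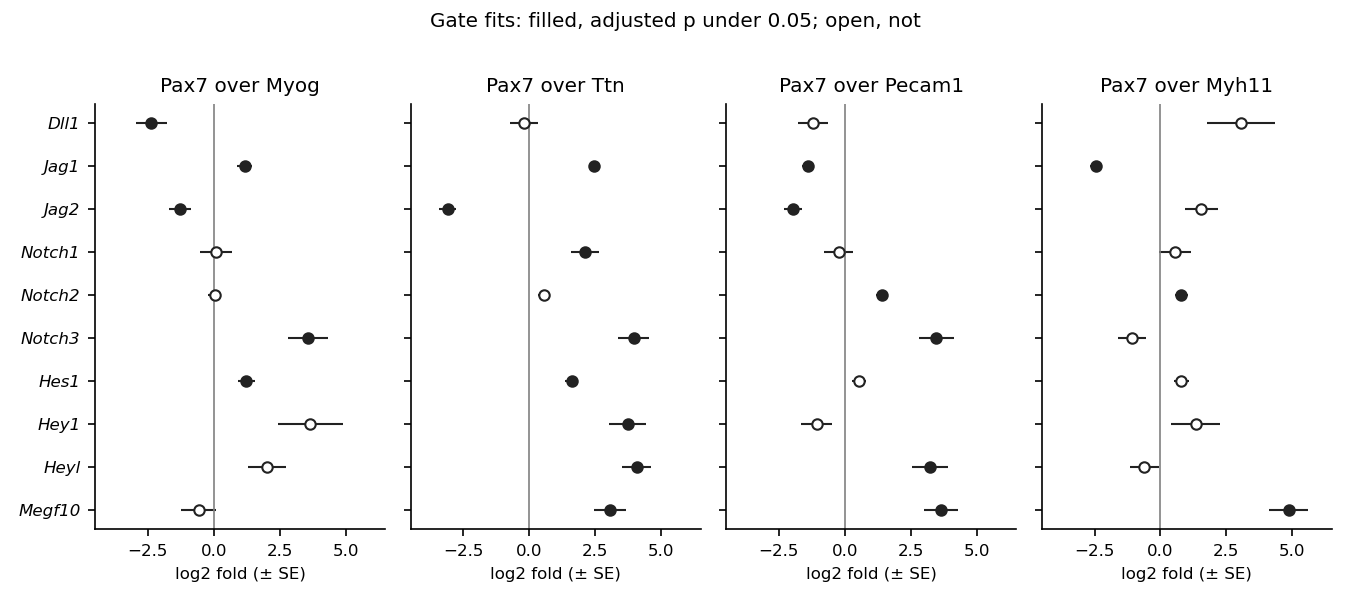
Log2 fold changes of the 10 members in Pax7 nuclei over the Myog, Ttn, Pecam1 and Myh11 gates (1 panel each), with bars of 1 SE, from the edgeR fit on the sums of each gate and library. Filled points have an adjusted p under 0.05, and values above 0 are higher in the Pax7 gate. Notch3 lies far above 0 against the Myog, Ttn and Pecam1 gates, and Jag1 changes side between the muscle and the vascular gates.

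At E18.5, the age with both genotypes, the gates were put in order for each member, and neighbours are said to differ where the exact interval of their ratio excluded 1. In WT, Notch3 ran from 987 CPM in Myh11 nuclei through 369 in Pax7 and 55.0 in Pecam1 nuclei to 22.1 in Ttn and 18.8 in Myog nuclei, and the last pair did not differ. In Cacna1s-/-, Myh11 nuclei (879.9 CPM) and then Pax7 nuclei (301 CPM) again led for Notch3. Jag1 had the same order of gates in both genotypes with all neighbours apart, in WT 451 CPM in Myh11, 175 in Pecam1, 66.1 in Pax7, 26.6 in Myog and 10.3 in Ttn nuclei. Jag2 was led by Ttn nuclei in WT (54.8 CPM), and Pecam1, Myog, Pax7 and Myh11 nuclei followed with no neighbours apart.

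Megf10 was led by Myog nuclei (1239 CPM in Cacna1s-/- and 1172 CPM in WT), with Pax7 nuclei next and apart from both neighbours. In WT, Pecam1 nuclei came next and stood above Ttn nuclei, which did not differ from Myh11 nuclei, whereas in Cacna1s-/- Ttn nuclei stood above Pecam1 nuclei and these above Myh11 nuclei. In WT, Dll1 was led by Myog nuclei, with Pecam1 nuclei next, and Pax7, Ttn and Myh11 nuclei could not be told apart by neighbours. Notch1 did not differ between neighbours among Pax7, Myog and Pecam1 nuclei of WT, and was lower in Myh11 and Ttn nuclei. Notch2 had Myog and Pax7 nuclei together at the top. For Hes1 in WT, Ttn nuclei stood apart below the other 4 gates, which did not differ between neighbours. In WT, Heyl had the order Myh11, Pax7, Myog, Pecam1 and Ttn nuclei, and Pax7 nuclei stood above Myog nuclei and these above Pecam1 nuclei, each by an interval that only just excluded 1.

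The step between the Pax7 and Myog gates was also read within the lineage, in nuclei with Pax7 and no Myog, with both, and with Myog and no Pax7, each over the whole gate. Nuclei with both numbered 83 in Cacna1s-/- E18.5 and 21, 66 and 11 in WT E14.5, E18.5 and P5. In the order Pax7 without Myog, both, and Myog without Pax7, Notch3 had 239, 95.7 and 26.6 CPM in Cacna1s-/- E18.5, 275, 67.6 and 35.5 CPM in WT E14.5 and 198, 45.0 and 19.4 CPM in WT E18.5. It thus ran down over the 3 sets in each of these libraries. In WT P5 the sets had 108, 119.9 and 20.5 CPM. Jag1 had 48.5, 14.4 and 18.03 CPM in Cacna1s-/- E18.5, 35.0, 13.5 and 5.85 CPM in WT E14.5 and 37.5, 15.4 and 16.6 CPM in WT E18.5. Nuclei with Pax7 and no Myog were the highest for Jag1 in each of the 3. Dll1 had 4.04, 13.5 and 12.6 CPM in Cacna1s-/- E18.5, 5.25, 9.01 and 9.62 CPM in WT E14.5 and 3.33, 7.71 and 11.7 CPM in WT E18.5, and the same nuclei were its lowest in each. For Hes1 and Jag2, also called between the gates, the Pax7 and Myog sets of WT E18.5 did not show the difference of the call. Hes1 had 46.4, 27.1 and 26.6 CPM in Cacna1s-/- E18.5, 46.3, 9.01 and 10.5 CPM in WT E14.5 and 49.6, 61.7 and 52.5 CPM in WT E18.5. Jag2 had 20.5, 38.1 and 29.9 CPM in Cacna1s-/- E18.5, 14.9, 27.0 and 47.7 CPM in WT E14.5 and 38.3, 61.7 and 39.0 CPM in WT E18.5, and all these sets include nuclei that were also in the Ttn gate. Megf10 had no common order, with 409, 529 and 487 CPM in Cacna1s-/- E18.5, 460.0, 568 and 333 CPM in WT E14.5 and 247, 168 and 333 CPM in WT E18.5. With nuclei of the Ttn gate left out, Megf10 was lower in Pax7 nuclei without Myog than in Myog nuclei without Pax7 in each of these libraries. It had 491 against 1123 CPM in Cacna1s-/- E18.5, 502 against 952 CPM in WT E14.5 and 458 against 1045 CPM in WT E18.5. In the same sets of WT E18.5, Hes1 had 69.7 against 45.6 CPM and Jag2 7.34 against 21.6 CPM, the directions of their calls.

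By stage, most members kept within 2-fold in Pax7 nuclei until P5. No group has a second library, so ratios are given with exact 95% intervals that cover counting error only, and no test of stage or genotype was possible. A member counts as higher or lower by size alone, at 2-fold or more with at least 20 UMIs in 1 of the 2 libraries. Between E18.5 and E14.5 the whole Pax7 gate had 1 member higher and 1 lower of 8 that reached 20 UMIs, where 12.5% of all genes were higher and 9.06% lower. The median log2 ratio of all genes was -0.12. Jag2 was the higher, with 44.0 CPM at E18.5 and 16.8 CPM at E14.5, a ratio of 2.61 (1.67 to 4.26). Megf10 was the lower, with 228 CPM at E18.5 and 477 CPM at E14.5, a ratio of 0.477 (0.429 to 0.531). Myonuclear markers, Ttn included, differed with them, at 26556 CPM at E18.5 and 6745 CPM at E14.5 in the whole gate.

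In nuclei that met the Pax7 gate alone, myonuclear markers summed to 1520.3 CPM at E18.5 and 1692 CPM at E14.5. There 0 of 7 members were 2-fold higher or lower at E18.5, where 8.42% of all genes were higher and 6.44% lower. Ratios at E18.5 over E14.5 were 0.905 (0.796 to 1.03) for Megf10, 1.14 (0.963 to 1.35) for Notch2, 1.40 (0.963 to 2.07) for Hes1 and 1.07 (0.676 to 1.71) for Heyl. Notch3, Notch1 and Jag1 had intervals above 1, at 1.20 (1.03 to 1.40), 1.83 (1.31 to 2.59) and 1.63 (1.09 to 2.49).

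Across birth, the count of members 2-fold different at P5 over E18.5 was 0 of 8 in the whole gate, where 6.04% of all genes were higher and 12.9% lower. It was 0 of 7 in nuclei of that gate alone, where 4.08% were higher and 9.19% lower. In those nuclei the ratios at P5 over E18.5 were 1.19 (0.842 to 1.67) for Notch1, 0.964 (0.776 to 1.19) for Notch2, 0.845 (0.689 to 1.03) for Notch3 and 1.16 (0.749 to 1.75) for Hes1. Megf10 had the one ratio whose interval lay off 1, 1.50 (1.29 to 1.73), with 685 CPM at P5 and 458 CPM at E18.5. Mesenchymal markers of these Pax7 nuclei summed to 1875 CPM at P5 and 1047 CPM at E18.5, and their part in these ratios was not tested.

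In the Adult library the whole gate and the nuclei of that gate alone gave different values. In the whole gate 7 of 8 members were lower in Adult than at P5 and 0 higher, where 36.6% of all genes were lower and 7.71% higher. The median log2 ratio of all genes was -0.56. Notch3 had 27.7 CPM in Adult and 109 CPM at P5, a ratio of 0.255 (0.166 to 0.377). Megf10 had 19.1 CPM in Adult and 219 CPM at P5, a ratio of 0.0870 (0.0526 to 0.136). The myonuclear list, Ttn included, summed to 89173 CPM in Adult and 32493 CPM at P5 in these gates, and its part in these ratios was not tested.

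The 24 Adult nuclei that met the Pax7 gate alone are among 25 Pax7 nuclei outside the Myog and Ttn gates. Those 25 had a median of 989 UMIs and 31551 UMIs in all, against a median of 3979 UMIs in such nuclei at P5. The 24 nuclei had 2559 CPM of myonuclear markers, against 2269 CPM at P5, and 2660.4 CPM of progenitor markers, against 1093 CPM at P5. There 2 of 7 members were higher and 1 lower than at P5, where 9.12% of all genes were higher and 18% lower. Notch2, Notch3 and Heyl had ratios above 1 there, whereas Notch1, Jag1, Hes1 and Megf10 had ratios below 1, as in the whole gate. Notch3 had 943 CPM (28 UMIs) in Adult and 311 CPM at P5, a ratio of 3.03 (1.94 to 4.58). Heyl had 236 CPM (7 UMIs) in Adult and 48.4 CPM at P5, a ratio of 4.87 (1.75 to 11.9). Hes1 was the lower one, with 1 UMI in Adult and 35 UMIs at P5, a ratio of 0.417 (0.0103 to 2.48) whose interval took in 1. Megf10 had 572 CPM in Adult and 685 CPM at P5, a ratio of 0.836 (0.480 to 1.36).

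Markers of other cells were read in these nuclei, since Myh11 nuclei also carried Notch3. Smooth muscle and pericyte markers summed to 101 CPM in the 24 Adult Pax7 nuclei and 159 CPM at P5. In the whole Pax7 gate they summed to 403 CPM in Adult and 381 CPM at P5. The whole Ttn gate had 412 CPM of them in Adult and 460 CPM at P5. In the whole Adult Pax7 gate Myh11, Acta2, Tagln and Kcnj8 were at 0, whereas Pdgfrb, Rgs5, Cspg4 and Abcc9 were not. The 24 nuclei are part of that gate, so the markers at 0 were at 0 in them too. In the whole Adult Myog gate, all of whose nuclei were also in the Ttn gate, the list summed to 387 CPM (78 UMIs), all from Abcc9. The sums of the whole gates are therefore not specific to smooth muscle and pericytes. Adipocyte markers summed to 876 CPM in Adult and 80.7 CPM at P5, and cell cycle markers to 0 CPM in Adult and 1322 CPM at P5. The part of adipocyte and cell cycle markers in the Adult ratios was not tested.

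The other pathway genes of the Pax7 gate were counted by the same rule in the whole gate, of 34, 34 and 28 that reached 20 UMIs at the 3 steps. At E18.5 over E14.5, 5 were higher and 3 lower, beside 12.5% and 9.06% of all genes. Ratios were led by the collagen gene Col5a3 (10.95), Neurl1b (6.66) and Calcr (5.51), and the glucosyltransferase gene Poglut1 (0.414), Hes6 (0.420) and Lfng (0.447) were lower. At P5 over E18.5, 1 was higher, Calcr (2.20), and 3 lower, Hes6 (0.238), Lfng (0.329) and Poglut1 (0.493), beside 6.04% and 12.9% of all genes. In Adult over P5, 1 was higher, Neurl1a (4.77), and 14 lower, beside 7.71% and 36.6% of all genes. In nuclei of that gate alone, 5 of 30 were higher and 0 lower at E18.5 over E14.5, where 8.42% of all genes were higher and 6.44% lower. At P5 over E18.5, 2 of 27 were higher and 2 lower, where 4.08% of all genes were higher and 9.19% lower. In Adult over P5, 4 of 22 were higher and 2 lower, where 9.12% of all genes were higher and 18% lower.

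**Figure D3:**
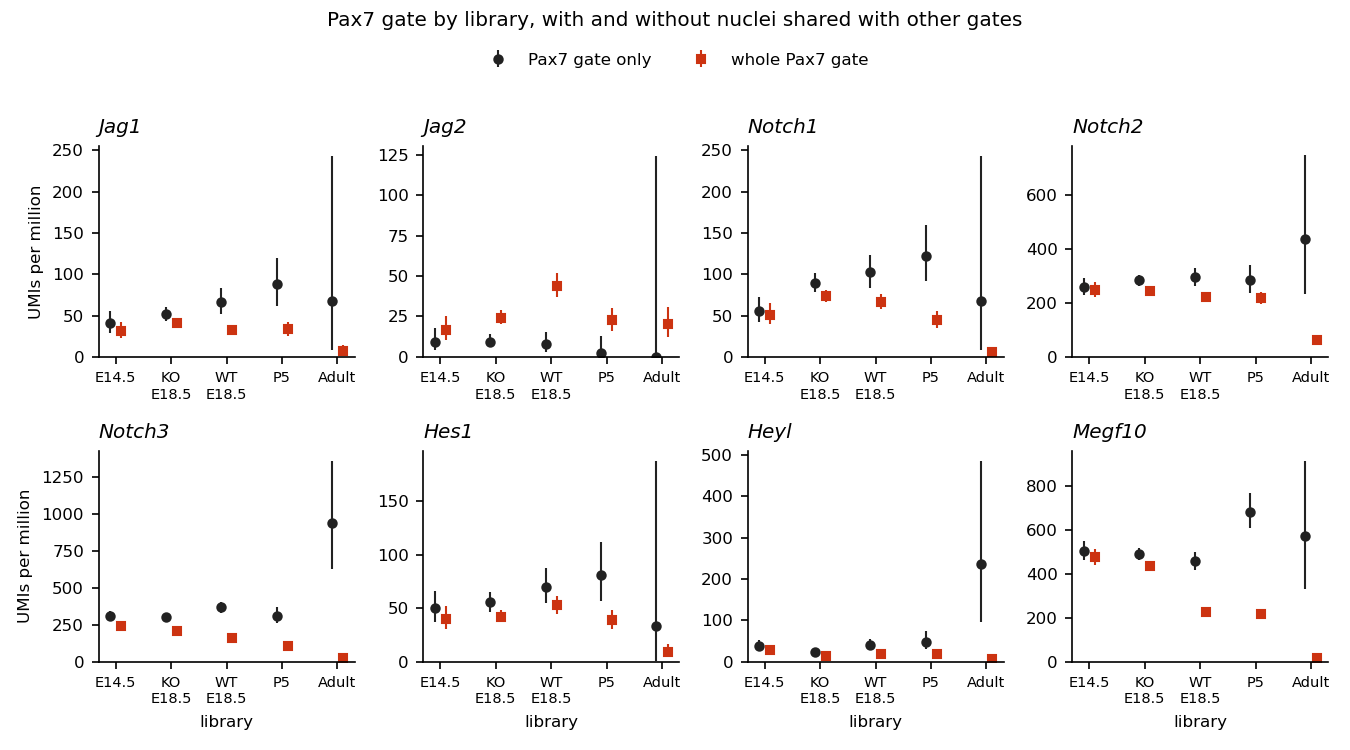
CPM of the members in the Pax7 gate of each library, with exact Poisson 95% intervals, for the whole gate and for nuclei that met the Pax7 gate alone. In WT Adult the whole gate is at least 2-fold below P5 for 7 of the 8 members with 20 UMIs, Jag2 being the exception, whereas the 24 nuclei of the Pax7 gate alone reach 943 CPM of Notch3 and 236 CPM of Heyl, with wide intervals.

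Outside the progenitors, Ttn nuclei showed larger steps. Megf10 had 152, 35.4, 16.8 and 1.71 CPM in the Ttn nuclei of WT E14.5, E18.5, P5 and Adult. Its ratios were 0.234 (0.203 to 0.268) at E18.5 over E14.5, 0.473 (0.384 to 0.581) at P5 over E18.5 and 0.102 (0.0669 to 0.151) in Adult over P5. Each step was down by more than counting error. Notch3 was lower at every step too, with ratios of 0.678 (0.551 to 0.833) at E18.5 over E14.5, 0.475 (0.364 to 0.617) at P5 over E18.5 and 0.126 (0.0768 to 0.198) in Adult over P5. Notch1 had ratios of 1.75 (1.39 to 2.22) at E18.5 over E14.5, 0.138 (0.0934 to 0.199) at P5 over E18.5 and 0.144 (0.0634 to 0.296) in Adult over P5, so its level was highest at E18.5 of the 4 WT stages. Jag2 had ratios of 1.05 (0.909 to 1.21) at E18.5 over E14.5, 0.713 (0.616 to 0.826) at P5 over E18.5 and 0.387 (0.330 to 0.454) in Adult over P5. The median log2 ratio of all genes of these nuclei was 0.10 at E18.5 over E14.5, -0.36 at P5 over E18.5 and -0.29 in Adult over P5. The Jag2 log2 ratio of -0.49 at P5 over E18.5 was near that median. Progenitor markers summed to 271, 82.6, 52.4 and 24.7 CPM in these nuclei from E14.5 to Adult, and committed myoblast markers to 378, 245, 34.4 and 6.82 CPM. Both lists were thus lower at each step, and their part in these ratios was not tested.

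In Myog nuclei Dll1 had 46.9 CPM at E18.5 and 11.5 CPM at E14.5, a ratio of 4.08 (1.57 to 13.5). Notch3 had 18.8 CPM at E18.5 and 62.1 CPM at E14.5, a ratio of 0.302 (0.140 to 0.617). In Myh11 nuclei Notch3 went the other way over the same step, with 987 CPM at E18.5 and 254 CPM at E14.5, a ratio of 3.88 (2.78 to 5.58). Jag1 in Myh11 nuclei had a ratio of 1.88 (1.31 to 2.76). Smooth muscle and pericyte markers of the Myh11 nuclei summed to 1561 CPM at E18.5 and 1009 CPM at E14.5, so both gene groups were higher in the later library, and their part in the Notch3 ratio was not tested.

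Hes1 had its highest level at E18.5, of the WT stages E14.5, E18.5 and P5, in both Pecam1 and Ttn nuclei. Its Pecam1 ratios were 2.10 (1.33 to 3.45) at E18.5 over E14.5 and 0.466 (0.298 to 0.710) at P5 over E18.5. In Ttn nuclei these ratios were 3.31 (2.44 to 4.55) and 0.673 (0.537 to 0.842), and in Myog nuclei the ratio at E18.5 over E14.5 was 3.29 (1.34 to 9.69).

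Loss of Cacna1s was read at E18.5, and no member that reached 20 UMIs differed 2-fold in Pax7 nuclei. In the whole gate 0 of 9 members were higher or lower in Cacna1s-/-, where 8.55% of all genes were higher and 4.35% lower. In nuclei of that gate alone it was 0 of 8, where 7.33% were higher and 2.91% lower. In those nuclei the ratio was 0.876 (0.695 to 1.11) for Notch1 and 0.958 (0.838 to 1.10) for Notch2. Notch3 had 301 CPM in Cacna1s-/- and 369 CPM in WT, a ratio of 0.817 (0.722 to 0.925) whose interval lay below 1. Megf10 had 492 CPM in Cacna1s-/- and 458 CPM in WT, a ratio of 1.08 (0.968 to 1.20). Its ratio in the whole gate was 1.91 (1.76 to 2.08), where 28.0% of Cacna1s-/- and 54.6% of WT Pax7 nuclei were also in the Ttn gate.

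The targets had ratios under 1 in Cacna1s-/- progenitors. Heyl had 23.1 CPM in Cacna1s-/- and 41.2 CPM in WT, a ratio of 0.561 (0.374 to 0.849) whose interval lay below 1. Hes1 had 55.3 CPM in Cacna1s-/- and 69.9 CPM in WT, a ratio of 0.791 (0.593 to 1.06). Hey1 rested on 4 UMIs in Cacna1s-/- and 11 UMIs in WT, a ratio of 0.144 (0.0334 to 0.485), and did not reach 20 UMIs in either library. Of the ligands, Jag1 had 51.5 CPM in Cacna1s-/- and 66.1 CPM in WT, a ratio of 0.780 (0.579 to 1.06). Jag2 had 9.47 CPM in Cacna1s-/- and 7.66 CPM in WT, a ratio of 1.24 (0.541 to 3.17), and neither interval excluded 1.

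In the same Pax7 nuclei the progenitor markers summed to 922 CPM in Cacna1s-/- and 933 CPM in WT. Cell cycle markers summed to 2349.6 CPM in Cacna1s-/- and 1872 CPM in WT, and mesenchymal markers to 564 CPM in Cacna1s-/- and 1047 CPM in WT. Their part in these ratios was not tested. Among the other pathway genes of the whole gate 2 of 35 were higher in Cacna1s-/-, Neurl1b (2.78) and Lfng (2.02), and 0 lower. In nuclei of that gate alone 0 of 32 were higher and 1 lower, Calcr (0.366).

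In the other gates Hes1, Heyl and Megf10 had intervals off 1 in more than 1 gate. Hes1 had 22.6 CPM in Cacna1s-/- and 45.4 CPM in WT in Myog nuclei, a ratio of 0.498 (0.278 to 0.886). In Ttn nuclei it had 14.4 CPM in Cacna1s-/- and 24.7 CPM in WT, a ratio of 0.584 (0.435 to 0.776), and in Pecam1 nuclei 37.9 CPM in Cacna1s-/- and 72.1 CPM in WT, a ratio of 0.526 (0.364 to 0.754). All 3 intervals lay below 1, and its ratio in Myh11 nuclei was 0.833 (0.439 to 1.57). Megf10 was higher in the Ttn nuclei of Cacna1s-/-, with 133 CPM in Cacna1s-/- and 35.4 CPM in WT, a ratio of 3.75 (3.23 to 4.36). In Pecam1 nuclei it had 103 CPM in Cacna1s-/- and 49.6 CPM in WT, a ratio of 2.07 (1.52 to 2.84), and in Myog nuclei its ratio was 1.06 (0.966 to 1.16). Heyl had a ratio of 0.506 (0.254 to 0.951) in Ttn nuclei. In Myog nuclei it had 7 UMIs in Cacna1s-/- and 14 in WT, a ratio of 0.301 (0.103 to 0.797), and in Pecam1 nuclei 2 UMIs in Cacna1s-/- and 12 in WT, a ratio of 0.170 (0.0185 to 0.764), both under the minimum of 20 UMIs. Notch2 had a ratio of 1.19 (1.09 to 1.30) in Ttn nuclei.

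Committed myoblast markers (Myog, Myod1, Mymk, Mymx, Cdh15 and Tnnt2) differed in the gates where Megf10 did. They summed to 360.2 CPM in Cacna1s-/- and 245 CPM in WT in those Ttn nuclei. In those Pecam1 nuclei they summed to 60.1 CPM in Cacna1s-/- and 16.3 CPM in WT. Mesenchymal markers were lower in the gates where Hes1 and Heyl were. They summed to 929 CPM in Cacna1s-/- and 1242 CPM in WT in Myog nuclei. In Ttn nuclei they summed to 211 CPM in Cacna1s-/- and 758 CPM in WT, and in Pecam1 nuclei to 704 CPM in Cacna1s-/- and 2244 CPM in WT. In Myh11 nuclei, where the Hes1 interval took in 1, the sums were 609 CPM in Cacna1s-/- and 1764 CPM in WT. The part of these lists in the ratios was not tested.

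**Figure D4:**
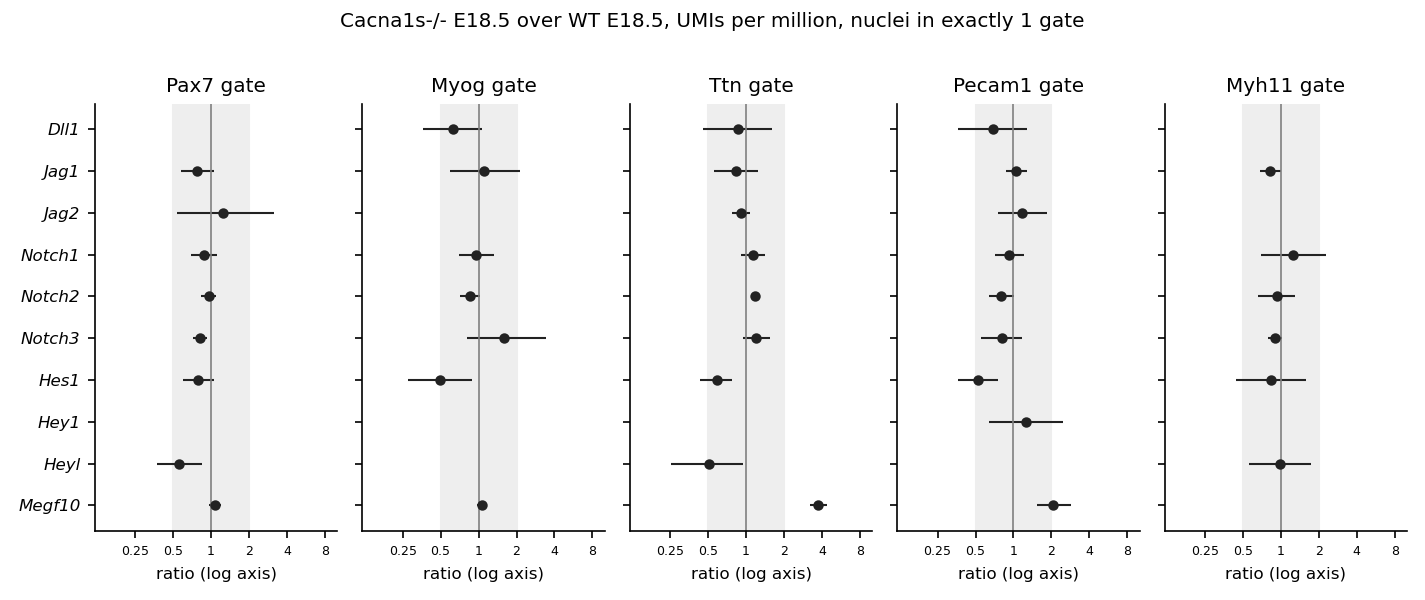
Ratio of Cacna1s-/- over WT at E18.5 for each member and gate (nuclei that met exactly 1 gate, log axis), with exact 95% intervals for counting error, for members with at least 20 UMIs in 1 of the 2 libraries. The grey band spans ratios of 0.5 to 2. In the Pax7 gate every ratio lies inside the band, and Megf10 in the Ttn gate lies at 3.75.

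The make-up of each class was described as the share of its UMIs that each gene took, in whole gates, a share that also reflects gene length. Of the UMIs of Notch1, Notch2 and Notch3 in the Pax7 gate, Notch3 took 39.5% in Cacna1s-/- E18.5 and 44.5%, 35.6%, 29.2% and 28.4% in WT E14.5, E18.5, P5 and Adult. In the Myog gate it took 13.3% in Cacna1s-/- E18.5 and 15.4%, 8.58% and 12.8% in WT E14.5, E18.5 and P5. In the Myh11 gate it took 71.6% in Cacna1s-/- E18.5 and 37.8%, 63.6%, 73.7% and 73.5% in WT E14.5, E18.5, P5 and Adult. Of the UMIs of the 3 ligands in the Ttn gate, Jag2 took 68.3% in Cacna1s-/- E18.5 and 81.7%, 75.7%, 71.3% and 64.6% in WT E14.5, E18.5, P5 and Adult. Of those in the Myh11 gate, Jag1 took 91.6% in Cacna1s-/- E18.5 and 84.1%, 84.7%, 88.6% and 90.9% in WT E14.5, E18.5, P5 and Adult. In the Pax7 gate the ligand share of Jag1 was 57.4% in Cacna1s-/- E18.5 and 58.1%, 39.8%, 53.4% and 22.6% in WT E14.5, E18.5, P5 and Adult, so it was lowest in Adult, where most Pax7 nuclei were also Ttn nuclei.

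Shares of nuclei with a UMI separated the same gates. A Notch3 UMI was found in 64.6% of Pax7-gate nuclei in Cacna1s-/- E18.5 and 62.0%, 41.8%, 28.9% and 8.11% in WT E14.5, E18.5, P5 and Adult, against 19.7% of Ttn-gate nuclei in Cacna1s-/- and 14.4%, 10.3%, 4.44% and 0.474% in WT. When each nucleus was thinned to 1000 UMIs, leaving out shallower nuclei, the shares were 22.7% in Cacna1s-/- and 22.3%, 15.3%, 10.4% and 2.38% in WT for the Pax7 gate, against 3.16% in Cacna1s-/- and 3.34%, 2.16%, 1.15% and 0.202% in WT for the Ttn gate. A Heyl UMI was found in 11.8% of Pax7-gate nuclei in Cacna1s-/- E18.5 and 13.2%, 11.5%, 10.4% and 3.24% in WT E14.5, E18.5, P5 and Adult, against 4.76% of Ttn-gate nuclei in Cacna1s-/- and 0.482%, 4.50%, 1.67% and 0.158% in WT. Thinned, they were 2.29% in Cacna1s-/- and 3.24%, 2.05%, 2.01% and 1.79% in WT for the Pax7 gate, against 0.612% in Cacna1s-/- and 0.109%, 0.572%, 0.242% and 0.0504% in WT for the Ttn gate. The Ttn gate served as the comparison for background UMIs, although it shares nuclei with the Pax7 gate and Heyl in myonuclei was not excluded. The Pax7 share of Heyl stood above its Ttn share in all 5 libraries both ways. The Ttn gate had a median of 10333 UMIs in Cacna1s-/- E18.5 and 4877, 6976, 6438 and 3356 UMIs in the WT stages, beside 8609 and 4576, 6339.5, 6587 and 4844 UMIs in the Pax7 gate. A Megf10 UMI was found in 77.5% of Pax7-gate nuclei in Cacna1s-/- E18.5 and 74.4%, 47.2%, 41.0% and 7.57% in WT E14.5, E18.5, P5 and Adult, against 49.6% of Ttn-gate nuclei in Cacna1s-/- and 37.3%, 19.6%, 6.98% and 0.632% in WT.

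Open chromatin at the start sites was read as ATAC counts in peaks within 1000 bases of a member's start, per 1000000 peak counts of the same nuclei (those in exactly 1 gate). Gates were compared within a library, because peaks were called in each. Notch3 had 83.6 in Cacna1s-/- E18.5 and 90.7, 55.6 and 53.6 in WT E14.5, E18.5 and P5 Pax7 nuclei, against 27.3 in Cacna1s-/- and 36.4, 23.6 and 15.0 in WT Ttn nuclei. The corresponding levels in Myog nuclei were 20.9 in Cacna1s-/- E18.5 and 45.8 and 20.1 in WT E14.5 and E18.5. Pax7 nuclei had the highest Notch3 start-site level of the 3 gates in these 3 libraries, as they had the most Notch3 RNA, and in WT P5 the Pax7 level was above the Ttn level. In Adult, 112 in Pax7 nuclei rests on 15 ATAC counts, against 7.56 in Ttn nuclei. Jag2 had 15.8 in Cacna1s-/- E18.5 and 50.8, 30.8 and 32.8 in WT E14.5, E18.5 and P5 Pax7 nuclei, against 79.4 in Cacna1s-/- and 92.5, 72.8 and 103 in WT Ttn nuclei, the Pax7 level being the lower in each library. Dll1 had 25.7 in Cacna1s-/- E18.5 and 15.2 and 27.1 in WT E14.5 and E18.5 Pax7 nuclei, against 60.5 in Cacna1s-/- and 58.5 and 42.5 in WT Myog nuclei, and Pax7 nuclei were the lower in each. These orders were those of the RNA.

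Megf10 ran the other way. Its start-site peaks had 74.4 in Cacna1s-/- E18.5 and 36.3 and 42.8 in WT E14.5 and E18.5 Pax7 nuclei, against 27.9 in Cacna1s-/- and 30.5 and 23.5 in WT Myog nuclei. Pax7 nuclei thus had the higher ATAC level in all 3 libraries and the lower RNA level in the same 3. The Myog values rest on 12, 12 and 21 ATAC counts, and the Megf10 gap in WT E14.5 was small. Heyl had 25.0 in Cacna1s-/- E18.5 and 43.5, 15.0 and 25.3 in WT E14.5, E18.5 and P5 Pax7 nuclei, against 10.7 in Cacna1s-/- and 11.98, 13.7 and 12.5 in WT Ttn nuclei, from 38, 60, 20 and 17 ATAC counts in the Pax7 nuclei of these libraries. The Heyl gap was small in WT E18.5.

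**Figure D5:**
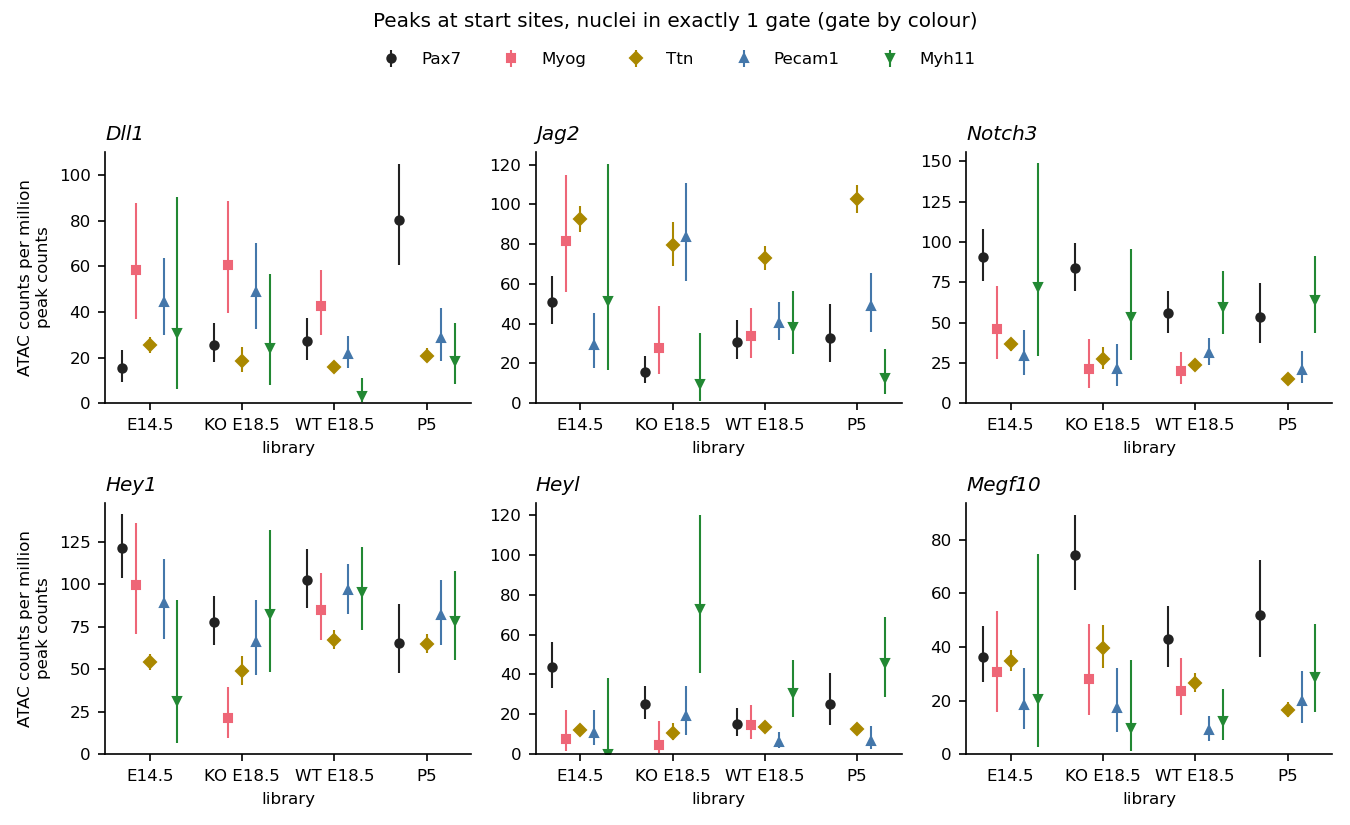
ATAC counts in start-site peaks per 1000000 peak counts, with exact Poisson 95% intervals, for 6 members in nuclei that met exactly 1 gate, by gate and library. WT Adult is not shown. At Notch3 the Pax7 points lie above the Ttn and Myog points of the same library, and at Jag2 below the Ttn points.

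The genes most like a member over the 25 whole-gate sums were ranked by Pearson's r of log2(CPM + 1) among 13850 genes. This is a description, since the sums of a library share its depth and many of their nuclei. For Megf10 they were Cdkn1c (0.97), Rps16 (0.96) and Fgfr4 (0.96), where Cdkn1c codes for a cell cycle inhibitor, Rps16 for a ribosomal protein and Fgfr4 for a receptor of muscle progenitors. Those for Heyl were Pde1a (0.90), Mical1 (0.86) and Lin7a (0.85). Those for Dll1 were Psmb5 (0.82), Nol12 (0.81) and Gm43466 (0.80), at lower r values than for Megf10.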

How the data were processed

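The authors made the deposited count matrices with Cell Ranger ARC 2.0.0 on mm10. The files hold whole-number UMI counts per gene and ATAC counts per peak, with peaks called in each library. A barcode entered the sums if its RNA UMIs lay above 400 and below 25000, if mitochondrial genes held less than 10% of them, and if its ATAC total lay below 70000. No doublet caller was run, and no barcode was removed as a doublet. The members and the gene lists were chosen with earlier results of these data known. The text names all 10 members, and of the other pathway genes at most the 3 with the largest change in each direction among those called. UMIs were summed per gate and library with python 3.11.15, numpy 2.4.6, scipy 1.17.1 and pandas 2.3.3, and plotted with matplotlib 3.10.9. Gates with at least 20 nuclei in exactly 1 gate entered a fit with edgeR 4.0.16 (R 4.3.3) on TMM-scaled sums after filterByExpr, with gate and library as terms, the quasi-likelihood test and a threshold of 0.05 on the Benjamini-Hochberg adjusted p. The library is a block in a joint fit of all gates. The p-values thus rest on the spread of all gates between libraries, not on that of the pair compared alone, and no group has a replicate. DESeq2 1.42.0 gave alternative size factors and an alternative test. The fit was tested on simulated data. Ratios between libraries have exact 95% intervals that cover counting error only, and a count of 0 was set to 3 counts in ratios. Other alternatives changed the gate (2 UMIs of the marker), the filters on nuclei, ATAC counts and UMIs, the thinning to 1000 UMIs and the library block, or left out a library.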

Additional observations from a re-analysis of the deposited data

Results flagged for a closer look

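Notch3 moved in opposite directions in 2 gates between the same libraries on 2 occasions, each time with both counting intervals off 1. In Adult over P5 its ratio was 3.03 (1.94 to 4.58) in nuclei of the Pax7 gate alone, where the Adult level rests on 24 nuclei, and 0.126 (0.0768 to 0.198) in nuclei of the Ttn gate alone. At E18.5 over E14.5 its ratio was 0.302 (0.140 to 0.617) in Myog nuclei and 3.88 (2.78 to 5.58) in Myh11 nuclei, where the E14.5 level rests on 29 nuclei. Each stage has 1 library, so the difference between the gates was not tested in either case.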

How the results depend on the processing

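No paired analysis was possible because each group has 1 library and the labels number no replicates that groups share. At E18.5 over E14.5 the count of members 2-fold different in the Pax7 gate was 2, and it was 1 with 2 UMIs of the marker, with no filter on nuclei, with thinned nuclei, with TMM factors or with DESeq2 size factors, and 0 in nuclei of exactly 1 gate. At P5 over E18.5 it was 0, and 1 with 2 UMIs of the marker or at least 400 ATAC counts. In Adult over P5 it was 7, and 3 in nuclei of exactly 1 gate and 1 with thinned nuclei. In nuclei of exactly 1 gate Notch2, Notch3 and Heyl turned round to log2 ratios of 0.61, 1.60 and 2.28. For Cacna1s-/- over WT it was 0, and 1 with no minimum of UMIs. Of 10 members called between Pax7 and Myog nuclei, 5 became 3 with 2 UMIs of the marker, 1 without the library block and 1 with thinned nuclei, where 5 could be tested, and 0 to 6 when 1 library was left out. Without WT E14.5 it was 3. Against Ttn nuclei 8 became 5 with thinned nuclei, of 5 that could be tested. Against Myh11 nuclei 3 became 2 to 5 when 1 library was left out, with 5 without WT Adult. The cause of these shifts was not tested beyond the fewer members tested after thinning.

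Counts over all genes moved more. Without the library block, 70 genes were higher and 194 lower in Pax7 than in Myog nuclei, against 573 and 561, and 262 and 623 against Pecam1 nuclei, where the block gave 1036 and 1240. Against Myh11 nuclei they were 273 and 444, where the block gave 825 and 860. Without WT E18.5, 68 genes were higher and 175 lower than in Myog nuclei, 264 and 752 than in Pecam1 nuclei, 210 and 495 than in Myh11 nuclei and 1232 and 1940 than in Ttn nuclei. Without Cacna1s-/- E18.5 these counts were 190 and 266 (Myog), 390 and 744 (Pecam1), 267 and 489 (Myh11) and 1403 and 1711 (Ttn). Without WT E14.5 they were 317 and 439 (Myog), 631 and 1114 (Pecam1) and 500 and 861 (Myh11). Without WT P5 they were 509 and 666 against Myh11 nuclei. With no filter on nuclei, 386 were higher and 465 lower than in Myog nuclei, 544 and 1098 than in Pecam1 nuclei and 447 and 704 than in Myh11 nuclei. With no filter on low counts, 3474 were lower than in Ttn nuclei. With each nucleus in every gate it met, 1182 were higher and 1682 lower than in Ttn nuclei, against 2204 and 2310, 621 and 1128 than in Pecam1 nuclei and 521 and 761 than in Myh11 nuclei. With thinned nuclei, 2882 genes were tested in place of 11920. Of 500 single-member values of the gate fits under these settings, 450 kept their direction and side of the threshold, 34 lost a call and 16 gained one, and none of the calls turned round. Myog nuclei of exactly 1 gate numbered 72 to 126, and Dll1 and Hey1 had under 20 UMIs in Pax7 nuclei, which limits what could be seen of them.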
